A study of Mus musculus with 21 samples.

Results

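Aminoacyl-tRNA synthetases are the enzymes that join each amino acid to its transfer RNA (tRNA). The 36 genes described here are 20 for cytosolic enzymes and 16 for mitochondrial enzymes, whose symbols end in 2. They were picked out by symbol, with no threshold on their values, from the 13202 genes of a table of RNA levels in mouse T cell cultures, and all 36 were found there. The study sequenced poly(A) RNA of 21 libraries in 7 groups with n = 3 each, to compare repeated with single stimulation of the T cell receptor and to compare vehicle with NAC (N-acetylcysteine), an antioxidant that cells use as a source of cysteine. All cells were labelled CD8+ T cells, came from spleen and lymph nodes, received 10 ng/mL interleukin-2 and were harvested on day 8.

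Polyclonal chronic cells were C57BL/6 cells that met plate-bound anti-CD3 again every 48 h after the first stimulation, and polyclonal acute cells were C57BL/6 cells that did not. OT-I chronic cells carried a transgenic receptor for an ovalbumin peptide and shared their dishes with a mouse melanoma line, B16-F10, that had been exposed to interferon-γ and was given that peptide. OT-I acute cells shared theirs with the same tumour cells without the peptide. NAC chronic cells were C57BL/6 cells under repeated anti-CD3 with 10 mM NAC from 48 h onwards. Vehicle chronic and vehicle acute cells were C57BL/6 cells with repeated anti-CD3 or without it, both with vehicle. The labels do not say whether the 3 libraries of a group came from separate mice or cultures, so p-values measure the spread between these libraries, which may be technical. In such bulk samples, fewer cells of a type and less RNA per cell cannot be told apart.

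Cytosolic synthetases charge tRNAs for translation of nuclear genes, and mitochondrial synthetases, encoded in the nucleus and imported, charge the tRNAs that translate the few proteins of the mitochondrial genome. Several cytosolic enzymes are held together in the multisynthetase complex by the scaffold proteins Aimp1, Aimp2 and Eef1e1. When uncharged tRNA or other stress leads to phosphorylation of eIF2α, the transcription factor ATF4 is made and, with C/EBP partners, raises genes of amino acid supply, among them many cytosolic synthetases. The single genes Gars and Kars encode both the cytosolic and the mitochondrial enzyme, and mitochondria make glutaminyl-tRNA through an amidotransferase (Qrsl1, Gatb and Gatc) rather than a synthetase.

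The promoters of 5 cytosolic genes are shown because they hold the core of the C/EBP-ATF response element, the letters TGATGNAA, searched on both strands in windows from 250 bases before to 50 bases after the start site. The capitals mark each match. Sequences are from RefSeq on build GRCm38.p6, read 5′ to 3′ on the strand of the gene, at chr8:111033592-111033871 (plus strand) for Aars, chr6:55037945-55038004 (plus strand) for Gars, chr13:49682100-49682159 (plus strand) for Iars, chr15:11399640-11399699 (minus strand) for Tars and chr4:129189873-129189932 (plus strand) for Yars. For Aars the window is given up to 30 bases past the start site, and for the others a stretch of 60 bases.
Aars: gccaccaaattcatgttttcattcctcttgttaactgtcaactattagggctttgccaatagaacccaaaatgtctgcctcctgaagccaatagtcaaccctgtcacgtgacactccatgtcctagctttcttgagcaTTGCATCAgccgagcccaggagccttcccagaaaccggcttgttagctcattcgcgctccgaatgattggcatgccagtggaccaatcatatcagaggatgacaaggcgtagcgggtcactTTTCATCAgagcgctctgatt
Gars: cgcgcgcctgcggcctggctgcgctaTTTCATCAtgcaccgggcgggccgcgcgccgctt
Iars: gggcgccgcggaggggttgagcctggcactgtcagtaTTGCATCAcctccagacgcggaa
Tars: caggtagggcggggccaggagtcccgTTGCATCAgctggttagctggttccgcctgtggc
Yars: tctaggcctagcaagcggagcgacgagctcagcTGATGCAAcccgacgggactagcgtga

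Entries for this window were found for 13 of the 20 cytosolic genes and 14 of the 16 mitochondrial genes. Cars, Hars, Lars, Nars, Rars, Vars, Wars, Hars2 and Pars2 had none. A match was found in 5 of the 13 cytosolic windows and in 0 of the 14 mitochondrial ones, against 4.51% of the 27025 genes with a window. Aars had 2 matches, whose first bases lay at positions -112 and 10 from the start site. A match of these letters is a description of the window and does not show a site in use.

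The 21 libraries held 5347355 to 25218890 reads. All 36 members passed the filter of 1 RPKM (reads per kilobase of gene, scaled to the size of the library) in at least 3 libraries, which kept 12630 genes. The fewest reads for a member in any library were 40, for Pars2. Low genes lay above those of the other libraries of their group in polyclonal acute library 2, polyclonal chronic library 2 and OT-I acute library 3. They also differed between experiments. The tenth percentile of RPKM was 0.132 to 1.32 in polyclonal acute, 0.636 to 1.35 in OT-I acute and 0.0721 to 0.0791 in vehicle acute libraries. The part of this difference in the ranges of low members such as Ears2 was not tested. The OT-I libraries held melanocyte RNA, with Tyrp1 at a mean of 1244 RPKM in chronic and 2281 RPKM in acute co-cultures, against 7.16 RPKM in polyclonal chronic and 9.67 RPKM in polyclonal acute libraries and 0 in all NAC and vehicle libraries. Melanocyte markers, 7 in all, summed to 21.2 to 40 RPKM in polyclonal chronic and 23.3 to 59.9 RPKM in polyclonal acute libraries. The CD8 marker Cd8a averaged 8.48 RPKM in polyclonal chronic libraries and between 87.1 and 145 RPKM in each of the other 6 groups.

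Cytosolic synthetase RNAs were the more abundant class in each group. Over the 20 genes, the median of the group means was 67.6 RPKM in polyclonal chronic and 45.7 RPKM in polyclonal acute cells. It was 84.3 RPKM in OT-I chronic and 83.6 RPKM in OT-I acute cultures, and 37.8 RPKM in NAC chronic, 59.1 RPKM in vehicle chronic and 67.8 RPKM in vehicle acute cells. The medians of the 16 mitochondrial genes lay between 8.07 RPKM in polyclonal chronic and 10.8 RPKM in OT-I chronic cells. NAC chronic was the lowest of the 7 groups for 15 of the 20 cytosolic genes, and OT-I acute was the highest for 12.

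Among the cytosolic genes, Gars (glycyl) ranged the most in absolute level, with group means between 76.1 RPKM with NAC and 362 RPKM in OT-I acute cultures. Kars (lysyl) lay between 85.8 RPKM with NAC and 166 RPKM in OT-I chronic cultures. Cars (cysteinyl) was the least abundant by its mean over groups, between 16.8 RPKM with NAC and 51.9 RPKM in OT-I chronic cultures. These 3 genes all had their lowest mean under NAC. Lars (leucyl) lay between 24.8 and 71.3 RPKM, Yars (tyrosyl) between 24.2 and 69.4 RPKM, and Tars (threonyl) between 37.7 and 88.9 RPKM, each lowest with NAC and highest in OT-I acute cultures. Mars (methionyl) lay between 31.0 RPKM with NAC and 68.0 RPKM in OT-I chronic cultures. Vars (valyl) and Qars (glutaminyl) varied the least of the cytosolic genes, with 1.54-fold and 1.41-fold between their highest and lowest group.

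Among the mitochondrial genes, Ears2 (glutamyl) was the least abundant, with group means between 1.02 RPKM in vehicle chronic and 2.57 RPKM in OT-I acute cultures. Pars2 (prolyl) lay between 2.68 and 4.06 RPKM and Aars2 (alanyl) between 3.66 and 5.73 RPKM. Iars2 (isoleucyl) lay between 26 and 31.7 RPKM, a 1.22-fold range and the narrowest of the 36 members, against 2.52-fold for Ears2. Tars2 (threonyl) was lowest in OT-I acute cultures at 9.57 RPKM and highest with NAC at 17.2 RPKM.

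Chronically stimulated polyclonal cells had more RNA of most cytosolic synthetases than acutely stimulated ones, and none of the mitochondrial synthetases rose (2 did with libraries rescaled to a common median). Of the 20 cytosolic genes, 17 rose, 2 fell (Vars and Qars) and 1 (Dars) did not pass the test, with a median log2 change of 0.41. A change was called at a limma adjusted p under 0.05. Of all 12630 genes tested, 64.1% passed, 28.6% higher and 35.5% lower, with a median log2 change of -0.08. Of the 8 enzymes of the multisynthetase complex, 6 rose and 1 fell. Log2 changes here and below are of RPKM + 1, with the SE of the fit, for n = 3 per group.

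Rars, the arginyl enzyme of the complex, had 78.0, 73.9 and 77.7 RPKM in polyclonal chronic libraries, against 42.5, 37.8 and 42.4 RPKM in polyclonal acute libraries. Its log2 change of 0.89 ± 0.05 was the largest of the 36 (limma adjusted p = 2.73e-12). Eprs, which joins the glutamyl and prolyl activities in a single protein of the complex, had 87.9, 81.0 and 88.7 RPKM in chronic, against 55.2, 54.5 and 58.3 RPKM in acute libraries. The groups did not overlap for either gene, and Eprs changed by 0.61 ± 0.04 (limma adjusted p = 1.25e-10). Farsb, the β subunit of the phenylalanyl enzyme, had 45.5, 39.9 and 43.2 RPKM in chronic, against 27.6, 27.0 and 28.8 RPKM in acute libraries, a change of 0.61 ± 0.06 (limma adjusted p = 6.97e-09). Wars, the tryptophanyl enzyme, had 53.7, 49.4 and 52.1 RPKM in chronic, against 35.0, 34.1 and 32.0 RPKM in acute libraries, a change of 0.61 ± 0.05 (limma adjusted p = 5.58e-10). All 3 chronic libraries lay above all 3 acute ones for Farsb and for Wars.

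Vars, the valyl enzyme, moved the other way, with 78.1, 75.5 and 76.6 RPKM in polyclonal chronic, against 117, 97.4 and 98.8 RPKM in polyclonal acute libraries. It fell by 0.44 ± 0.05 on the log2 scale (limma adjusted p = 3.85e-07), with no overlap. Qars, the glutaminyl enzyme, had 74.9, 70.9 and 84.8 RPKM in chronic, against 92.6, 90.7 and 88.6 RPKM in acute libraries, and fell by 0.24 ± 0.06 (limma adjusted p = 0.000967). Its groups did not overlap either. Dars, the aspartyl enzyme, had 72.4, 69.0 and 76.3 RPKM in chronic, against 69.9, 74.1 and 75.7 RPKM in acute libraries, which overlapped. The call for Kars (0.13 ± 0.05, limma adjusted p = 0.0341) was lost without polyclonal acute library 1 or 3 or polyclonal chronic library 1 or 3, with adjusted p of 0.0578, 0.0923, 0.134 and 0.163 in that order.

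Of the 16 mitochondrial genes, 5 fell in polyclonal chronic cells and 11 did not pass the test, with a median log2 change of 0.01. These falls were no more frequent than the 35.5% of all genes that were lower. With libraries rescaled to a common median, 2 rose and 5 fell. Wars2 (tryptophanyl) had 2.54, 3.09 and 2.57 RPKM in chronic, against 4.07, 4.22 and 3.75 RPKM in acute libraries, and fell by 0.43 ± 0.08 (limma adjusted p = 0.000177). Sars2 (seryl) had 6.85, 7.71 and 6.88 RPKM in chronic, against 10.8, 9.5 and 9.16 RPKM in acute libraries, and fell by 0.41 ± 0.08 (limma adjusted p = 0.000241). Hars2 (histidyl) had 10.6, 11.9 and 9.65 RPKM in chronic, against 12.8, 14.8 and 13.5 RPKM in acute libraries, and fell by 0.33 ± 0.06 (limma adjusted p = 0.000115). The chronic libraries lay below the acute ones for these 3 genes without overlap. Cars2 (cysteinyl) and Vars2 (valyl) fell by 0.23 and 0.22, and the call for Vars2 was lost without polyclonal acute library 2 (limma adjusted p = 0.0759) and without the 3 libraries with raised low genes (0.102). Aars2, at 0.19 ± 0.10 and limma adjusted p = 0.101, passed the test as higher with the replicate number as a block (adjusted p = 0.0354).

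Markers of other cells moved with the polyclonal comparison. The summed level of 6 B cell markers was 211 to 232 RPKM in polyclonal chronic and 3.24 to 14.5 RPKM in polyclonal acute libraries, and 6 of 6 rose. The 3 CD4 T cell markers summed to 377 to 403 RPKM in chronic and 99.0 to 108 RPKM in acute libraries, and 3 of 3 rose. Of 5 CD8 T cell markers, 4 fell, with sums of 862 to 996 RPKM in chronic and 1477 to 1641 RPKM in acute libraries. Of 3 myeloid markers 2 fell, with sums of 5.78 to 8.28 RPKM in chronic and 17.9 to 23.5 RPKM in acute libraries. Of 2 natural killer (NK) cell markers 1 fell, with sums of 0.747 to 2.44 RPKM in chronic and 21.2 to 24.1 RPKM in acute libraries. No gene of these lists was at 0 in both groups. The part of these cells in the synthetase values was not tested.

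**Figure D1:**
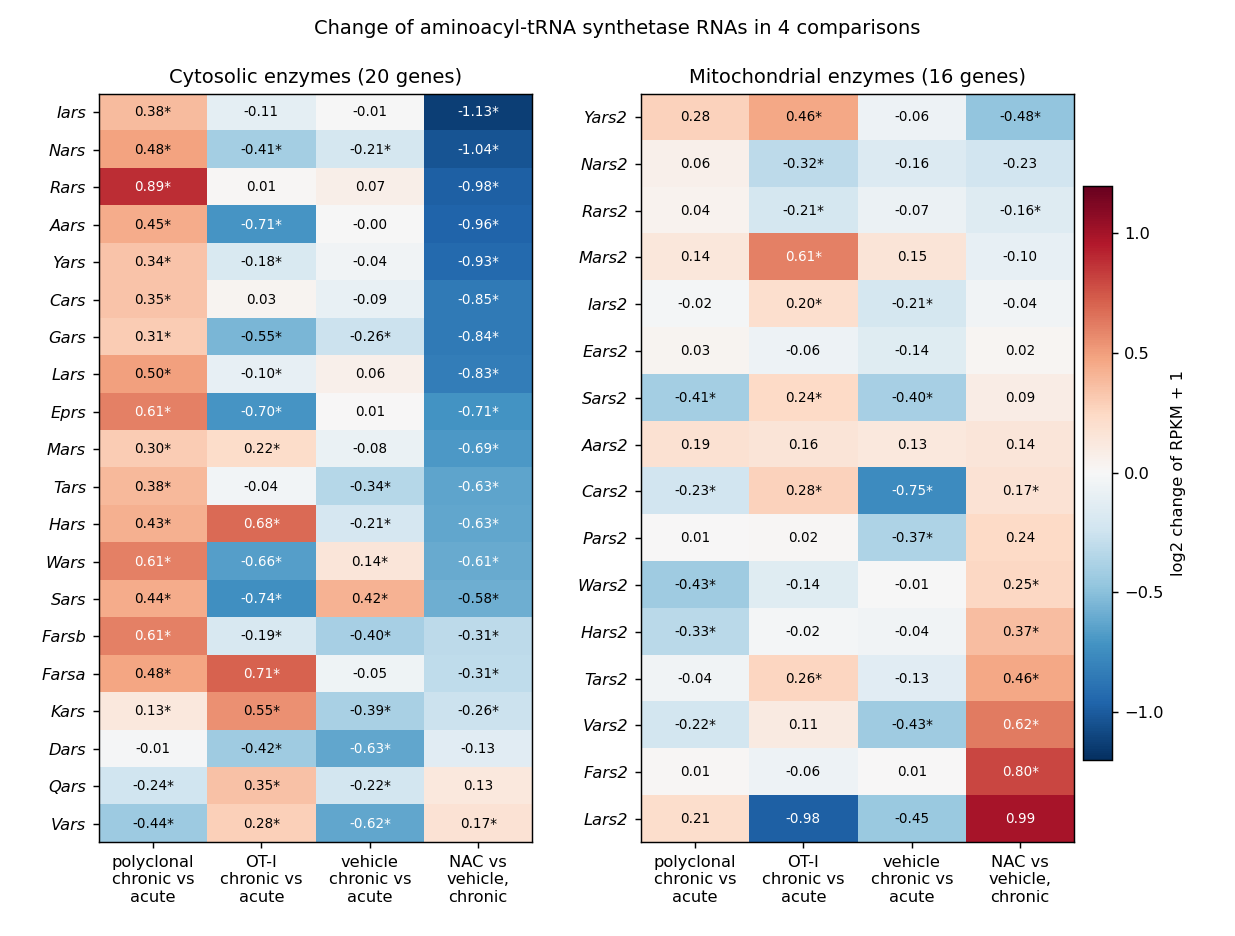
Heat maps of the log2 change of RPKM + 1 of the 20 cytosolic (left) and 16 mitochondrial genes (right) in 4 comparisons, red for higher and blue for lower in the group named first, with n = 3 per group. An asterisk marks a limma adjusted p under 0.05. The cytosolic column of NAC against vehicle is blue for 17 called genes and the polyclonal column red for 17, with Vars and Qars apart.

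In OT-I co-cultures the cytosolic synthetases did not move as a class. With peptide, 6 rose, 10 fell and 4 did not pass the test, with a median log2 change of -0.10. Of all genes tested, 58.6% passed, 22.4% higher and 36.2% lower, with a median of -0.12. With libraries rescaled to a common median, 7 rose and 7 fell. Of the 8 complex enzymes, 3 rose and 3 fell.

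Sars, the seryl enzyme, had 106, 104 and 104 RPKM in OT-I chronic, against 178, 189 and 159 RPKM in OT-I acute libraries. It fell by 0.74 ± 0.05 (limma adjusted p = 3.29e-10). Aars, the alanyl enzyme, had 129, 132 and 128 RPKM in chronic, against 216, 218 and 207 RPKM in acute libraries, and fell by 0.71 ± 0.04 (limma adjusted p = 4.09e-11). Neither gene overlapped between the groups. Eprs had 99.0, 95.8 and 91.9 RPKM in chronic, against 159, 156 and 154 RPKM in acute libraries, and fell by 0.70 ± 0.04 (limma adjusted p = 3.76e-11). Its chronic libraries all lay below its acute ones.

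Farsa, the α subunit of the phenylalanyl enzyme, rose instead, with 51.7, 54.1 and 51.9 RPKM in OT-I chronic, against 32.0, 34.0 and 29.6 RPKM in OT-I acute libraries. Its log2 change was 0.71 ± 0.06 (limma adjusted p = 1.67e-09). Hars, the histidyl enzyme, had 71.5, 70.9 and 72.8 RPKM in chronic, against 44.9, 46.1 and 41.9 RPKM in acute libraries, a change of 0.68 ± 0.05 (limma adjusted p = 3.11e-10). Both genes were higher in each chronic library than in any acute library. The phenylalanyl enzyme is made of both subunits, and Farsb differed from Farsa in sign, with a log2 change of -0.19 ± 0.06 (limma adjusted p = 0.00596, and 0.234 with libraries rescaled to a common median). The fall of Yars was lost without OT-I acute library 2 (adjusted p = 0.0530) and with libraries rescaled (-0.09, adjusted p = 0.256). That of Lars (-0.10 ± 0.04, limma adjusted p = 0.0484) was lost without OT-I acute library 1 or 3 or OT-I chronic library 2 or 3, with adjusted p of 0.0814 to 0.174, and with libraries rescaled (-0.0059, adjusted p = 0.930).

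Of the 16 mitochondrial genes, 6 rose in OT-I chronic co-cultures, 2 fell and 8 did not pass the test, with a median log2 change of 0.06. With libraries rescaled to a common median, 8 rose and 1 fell. Mars2 (methionyl) had 7.31, 7.91 and 6.90 RPKM in chronic, against 4.37, 3.97 and 5.18 RPKM in acute libraries, a change of 0.61 ± 0.08 (limma adjusted p = 4.02e-06). Yars2 (tyrosyl) had 15.2, 16.6 and 17.9 RPKM in chronic, against 10.8, 14.8 and 9.99 RPKM in acute libraries, a change of 0.46 ± 0.12 (limma adjusted p = 0.00250). Both genes were higher in all chronic libraries. Nars2 (asparaginyl) had 4.49, 4.69 and 4.20 RPKM in chronic, against 5.80, 6.30 and 5.32 RPKM in acute libraries, and fell by 0.32 ± 0.10 (limma adjusted p = 0.0103, and 0.0510 without OT-I acute library 2). Rars2 (arginyl) had 27.4, 27.7 and 26.8 RPKM in chronic, against 30.8, 32.6 and 31.6 RPKM in acute libraries, and fell by 0.21 ± 0.07 (limma adjusted p = 0.0109, and 0.134 with libraries rescaled). Neither gene overlapped. The rise of Sars2 (0.24 ± 0.08, limma adjusted p = 0.0190) was lost without OT-I acute library 1 or OT-I chronic library 2 or 3, with adjusted p of 0.0517 to 0.0892.

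Tumour RNA moved with the OT-I comparison. The 7 melanocyte markers summed to 3770.1 to 3847 RPKM in OT-I chronic and 7076 to 7364 RPKM in OT-I acute libraries, and 6 of 7 fell. The 6 B cell markers summed to 43.1 to 47.0 RPKM in chronic and 5.01 to 10.9 RPKM in acute libraries, and 5 of 6 rose. None of these markers was at 0. Of 5 CD8 T cell markers, 4 fell as well, with sums of 720 to 744 RPKM in chronic and 873 to 1099 RPKM in acute libraries. Both NK cell markers rose, with sums of 10.7 to 12.6 RPKM in chronic and 1.64 to 3.32 RPKM in acute libraries. The libraries do not separate synthetase RNA of T cells from that of tumour cells, and the part of the tumour cells was not tested.

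In the vehicle experiment the share of members called was below that of all genes in both classes, and single members such as Dars, Vars and Cars2 fell with repeated anti-CD3. Of the 20 cytosolic genes, 2 rose, 9 fell and 9 did not pass the test, with a median log2 change of -0.09. Of all genes tested, 58.9% passed, 24.5% higher and 34.4% lower, with a median of -0.03. Of the 8 complex enzymes, 3 fell and 5 did not pass. Of the 16 mitochondrial genes, 5 fell and 11 did not pass, with a median of -0.14, and these falls were no more frequent than the 34.4% of all genes.

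Dars had 55.8, 57.7 and 55.5 RPKM in vehicle chronic, against 93.5, 88.4 and 80.9 RPKM in vehicle acute libraries, and fell by 0.63 ± 0.06 (limma adjusted p = 3.09e-08). Vars had 70.2, 70.0 and 71.6 RPKM in chronic, against 108, 109.9 and 109 RPKM in acute libraries, and fell by 0.62 ± 0.05 (limma adjusted p = 2.69e-09). Farsb had 32.3, 30.7 and 30.7 RPKM in chronic, against 42.5, 41.4 and 40.6 RPKM in acute libraries, and fell by 0.40 ± 0.06 (limma adjusted p = 3.24e-06). All 3 genes were lower in each chronic library than in any acute one. Sars rose, with 105, 107 and 105 RPKM in chronic, against 79.1, 81.9 and 74.7 RPKM in acute libraries, a change of 0.42 ± 0.05 (limma adjusted p = 6.58e-07). Wars had 55.8, 55.5 and 55.5 RPKM in chronic, against 52.5, 51.9 and 46.7 RPKM in acute libraries, a change of 0.14 ± 0.05 (limma adjusted p = 0.0141, and 0.116 without vehicle acute library 3). Neither gene overlapped between the groups.

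Cars2 had the largest change of the mitochondrial genes here, with 12.1, 11.2 and 9.85 RPKM in vehicle chronic, against 18.6, 19.9 and 19.3 RPKM in vehicle acute libraries. It fell by 0.75 ± 0.07 (limma adjusted p = 6.40e-09). Vars2 had 6.02, 5.93 and 5.67 RPKM in chronic, against 8.04, 8.32 and 8.32 RPKM in acute libraries, and fell by 0.43 ± 0.07 (limma adjusted p = 2.49e-05). The groups of both genes lay apart. Sars2 had 11.4, 9.73 and 9.26 RPKM in chronic, against 13.2, 14.5 and 13.4 RPKM in acute libraries, and fell by 0.40 ± 0.08 (limma adjusted p = 0.000309), also with no overlap. The 3 myeloid markers in the table summed to 10.0 to 10.7 RPKM in chronic and 2.64 to 3.82 RPKM in acute libraries, and 3 of 3 rose. The CD4 markers summed to 18.7 to 21.8 RPKM in chronic and 33.7 to 34.5 RPKM in acute libraries, and 2 of 3 fell. The CD8 markers summed to 1556 to 1579 RPKM in chronic and 1136 to 1188 RPKM in acute libraries, and of 5 markers 3 rose and 1 fell. Their part was not tested.

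Chronically stimulated cells had less RNA of most cytosolic synthetases with NAC than with vehicle. Of the 20 cytosolic genes, 17 fell, 1 rose (Vars, not with libraries rescaled) and 2 did not pass the test (Dars and Qars), with a median log2 change of -0.66. Of all genes tested, 61.1% passed, 38.5% higher and 22.6% lower, with a median of 0.08. Iars and Nars were at least 2-fold lower. Of the 8 complex enzymes, 6 fell and 2 did not pass.

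Iars, the isoleucyl enzyme of the complex, had 21.3, 22.5 and 21.8 RPKM in NAC chronic, against 49.8, 46.8 and 50.4 RPKM in vehicle chronic libraries. It fell by 1.13 ± 0.05 (limma adjusted p = 2.21e-13), the largest change of a cytosolic member in any of the 4 comparisons. Nars, the asparaginyl enzyme, had 50.8, 51.5 and 51.1 RPKM with NAC, against 104, 109 and 104 RPKM with vehicle, and fell by 1.04 ± 0.06 (limma adjusted p = 5.05e-12). Neither gene overlapped between the groups. Rars had 36.1, 36 and 33.0 RPKM with NAC, against 67.9, 71.9 and 70.6 RPKM with vehicle, and fell by 0.98 ± 0.05 (limma adjusted p = 1.01e-12). Aars had 42.0, 41.6 and 40.6 RPKM with NAC, against 82.3, 81.4 and 80.7 RPKM with vehicle, and fell by 0.96 ± 0.04 (limma adjusted p = 1.91e-13). All NAC libraries lay far below the vehicle libraries for both.

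Vars had 79.3, 82.9 and 76.4 RPKM in NAC chronic, against 70.2, 70.0 and 71.6 RPKM in vehicle chronic libraries, which did not overlap. Its log2 change of 0.17 ± 0.05 (limma adjusted p = 0.00898) became -0.0035 with libraries rescaled to a common median (adjusted p = 0.990), and the call was also lost without NAC chronic library 2 (adjusted p = 0.0524). Qars had 87.5, 86.3 and 82.0 RPKM with NAC, against 77.8, 79.5 and 76.7 RPKM with vehicle, a change of 0.13 ± 0.06 that did not pass (limma adjusted p = 0.0602).

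Of the 16 mitochondrial genes, 6 rose with NAC, 2 fell and 8 did not pass the test, with a median log2 change of 0.16, and with libraries rescaled to a common median 4 rose and 5 fell. The rises were near the 38.5% of all genes that were higher, and nothing about the class is read from them. Without vehicle chronic library 3, 5 genes of the class passed in either direction. Fars2 (phenylalanyl) had 16.2, 16.0 and 17.1 RPKM in NAC chronic, against 9.36, 9.20 and 8.51 RPKM in vehicle chronic libraries, a change of 0.80 ± 0.06 (limma adjusted p = 1.97e-10). Vars2 had 10.1, 9.86 and 8.73 RPKM with NAC, against 6.02, 5.93 and 5.67 RPKM with vehicle, a change of 0.62 ± 0.07 (limma adjusted p = 2.06e-07). Both genes were higher in each NAC library than in any vehicle library, and Tars2 and Hars2 rose by 0.46 ± 0.06 and 0.37 ± 0.06 on the log2 scale. Yars2 fell, with 8.37, 8.96 and 11.7 RPKM with NAC, against 14.0, 14.6 and 12.6 RPKM with vehicle, by 0.48 ± 0.12 (limma adjusted p = 0.00181). Rars2 had 14.2, 15.2 and 14.8 RPKM with NAC, against 17.8, 15.8 and 16.2 RPKM with vehicle, and fell by 0.16 ± 0.07 (limma adjusted p = 0.0470). Neither overlapped, but the call for Rars2 was lost without any of 5 libraries (vehicle chronic 1 or 3, NAC chronic 1, 2 or 3), with adjusted p of 0.0544 to 0.218. The rises of Cars2 (0.17 ± 0.07) and Wars2 (0.25 ± 0.08) were also lost with single libraries left out. For Cars2 these were vehicle chronic 2 or 3 and NAC chronic 1 or 2 (adjusted p of 0.0540 to 0.235), and for Wars2 vehicle chronic 1 or 3 and NAC chronic 3 (adjusted p of 0.0530 to 0.0950).

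The 3 CD4 markers summed to 71.9 to 73.6 RPKM in NAC chronic and 18.7 to 21.8 RPKM in vehicle chronic libraries, and 3 of 3 rose. The 3 myeloid markers summed to 31.1 to 33.0 RPKM with NAC and 10.0 to 10.7 RPKM with vehicle, of which 2 rose and 1 fell. The CD8 markers summed to 1832 to 1888 RPKM with NAC and 1556 to 1579 RPKM with vehicle, and 2 of 5 rose. The part of these cells in the synthetase values was not tested.

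Against vehicle acute cells, NAC chronic cells also had less cytosolic synthetase RNA: 19 of 20 genes fell and Qars did not pass the test, with a median log2 change of -0.77. Of all genes tested, 66.3% passed, 36.3% higher and 29.9% lower. Of the mitochondrial genes 6 rose and 6 fell, or 3 rose and 6 fell with libraries rescaled. This comparison shares its NAC libraries with the one above, and its vehicle acute libraries with that of vehicle chronic cells. The cytosolic level under NAC was thus below both vehicle groups for most genes, as the plot of 6 cytosolic genes shows for Rars, Iars, Aars and Sars.

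**Figure D2:**
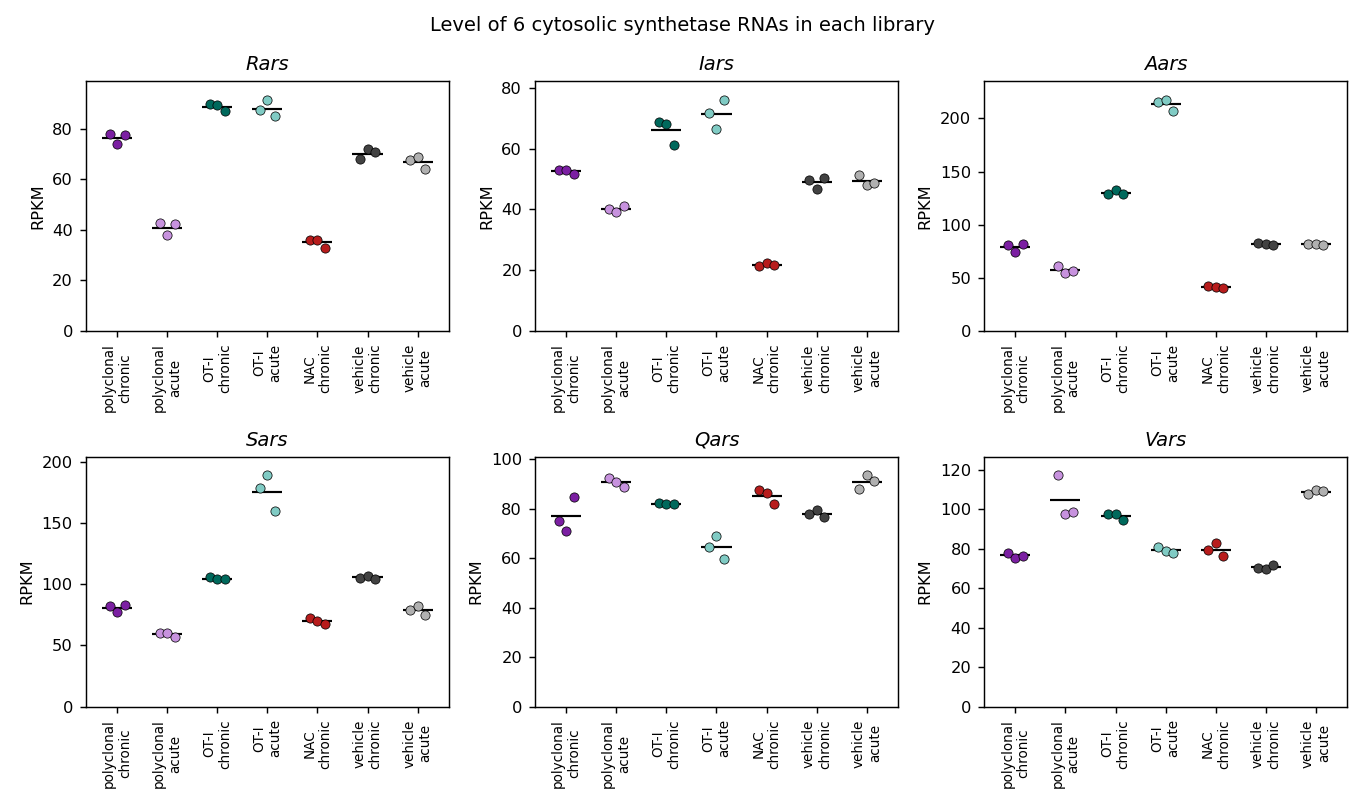
RPKM (y axis, from 0) of 6 cytosolic synthetase genes in each library of the 7 groups, with points for libraries and a bar for the mean of n = 3. Rars, Iars and Aars have their lowest points in NAC chronic libraries (33.0 to 36.1, 21.3 to 22.5 and 40.6 to 42.0 RPKM), whereas Qars and Vars do not.

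**Figure D3:**
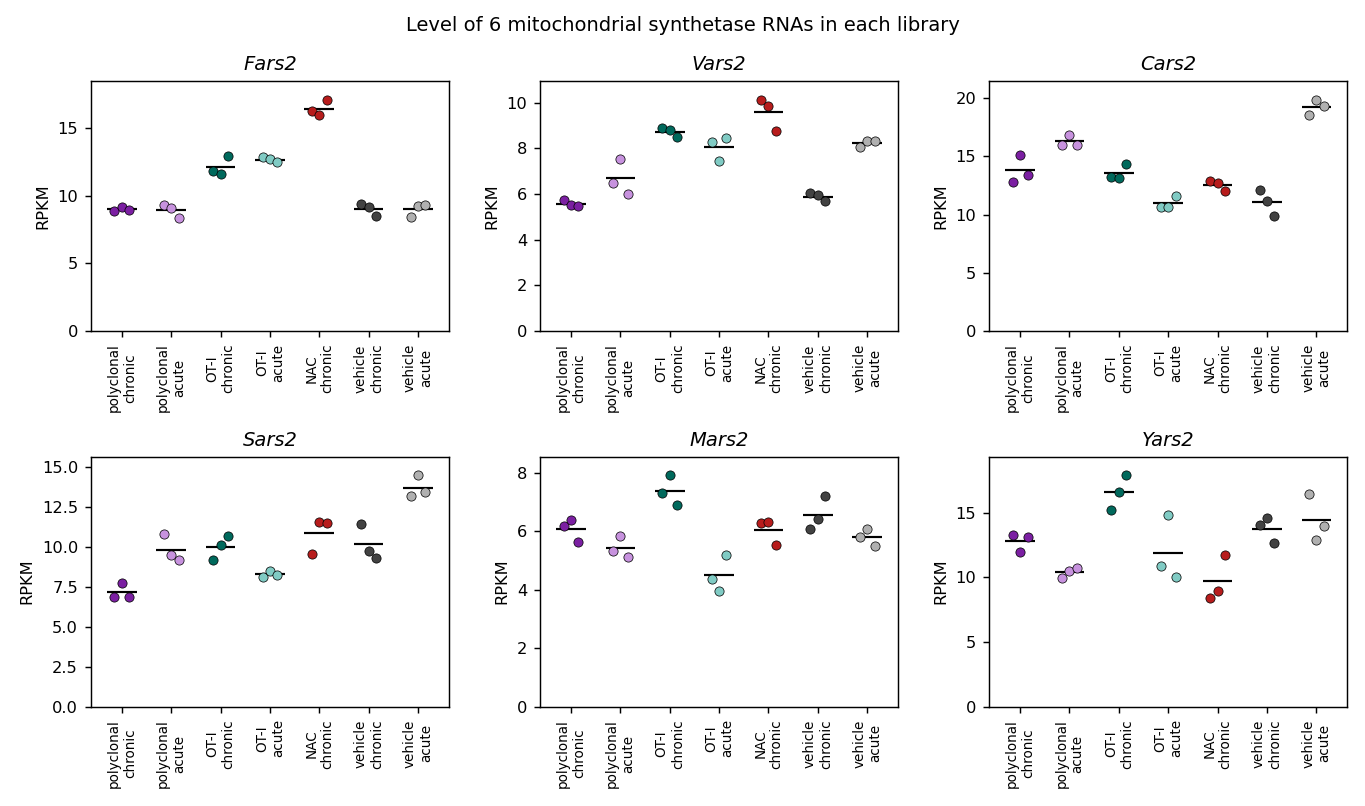
RPKM (y axis, from 0) of 6 mitochondrial synthetase genes in each library of the 7 groups, with points for libraries and a bar for the mean of n = 3. Fars2 stands highest with NAC (16.0 to 17.1 RPKM) and Cars2 highest in vehicle acute libraries (18.6 to 19.9 RPKM).

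The balance of the classes was taken in each library as the mean log2(RPKM + 1) of the 20 cytosolic genes minus that of the 16 mitochondrial genes, as a description with no test. It was 2.73 ± 0.18 in polyclonal chronic and 2.33 ± 0.16 in polyclonal acute libraries (SD, n = 3 each), which did not overlap. It was 2.98 ± 0.17 in OT-I chronic and 3.11 ± 0.12 in OT-I acute libraries, which overlapped. Without Lars2 the OT-I libraries no longer overlapped, at 3.12 to 3.21 in chronic and 3.29 to 3.41 in acute libraries. NAC chronic libraries had 2.06 ± 0.04, vehicle chronic libraries 2.86 ± 0.02 and vehicle acute libraries 2.82 ± 0.04. The NAC libraries, between 2.01 and 2.09, lay below the other 18, while the vehicle chronic and vehicle acute libraries overlapped. Without Lars2 the balance was 2.19 ± 0.04 in NAC chronic and 2.94 ± 0.03 in vehicle chronic libraries.

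**Figure D4:**
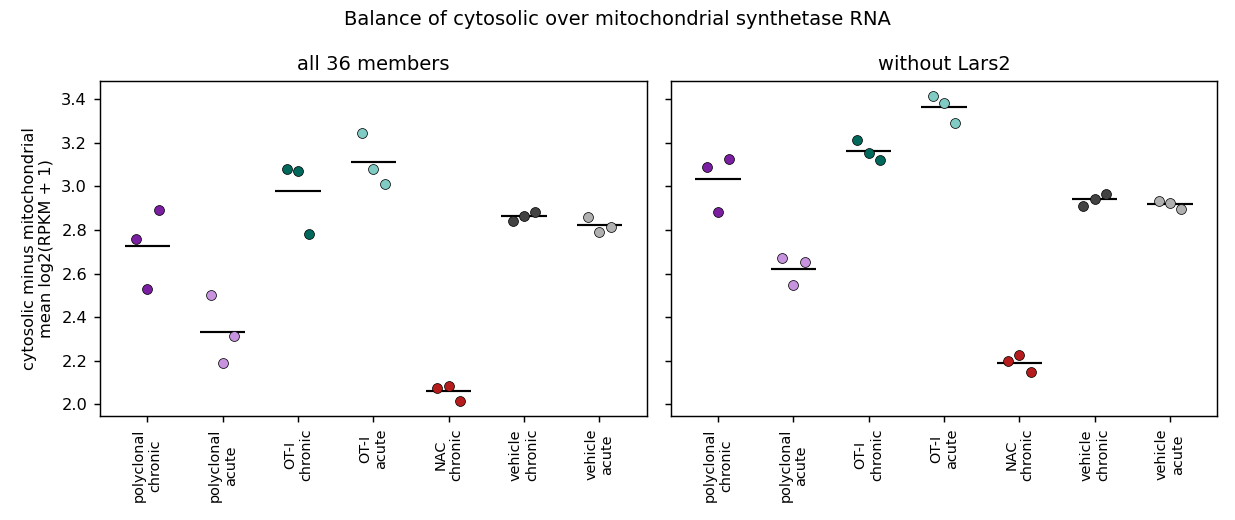
Cytosolic minus mitochondrial mean log2(RPKM + 1) (y axis, not from 0) in each library of the 7 groups, over all 36 members (left) and without Lars2 (right). Points are libraries and bars the mean of n = 3. NAC chronic libraries lie at 2.01 to 2.09 on the left, below the vehicle chronic libraries at 2.84 to 2.88.

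Lars2, the mitochondrial leucyl enzyme, differed between libraries of one group more than any other member, a gene singled out after its values were seen. It had 309.8, 429.9 and 106 RPKM in polyclonal chronic libraries, against 54.5, 472 and 350.3 RPKM in polyclonal acute libraries. It had 41.6, 24.4 and 434 RPKM in OT-I chronic libraries, against 58.6, 274 and 219 RPKM in OT-I acute libraries. These groups overlapped, and Lars2 passed the test in none of the comparisons, with changes of 0.21 ± 0.85 in polyclonal and -0.98 ± 0.85 in OT-I cells. It had 33.8, 41.2 and 39.2 RPKM in NAC chronic, against 17.0, 19.4 and 19.4 RPKM in vehicle chronic libraries, and 20.1, 39.3 and 21.6 RPKM in vehicle acute libraries. All NAC libraries were above the vehicle chronic ones, yet the change of 0.99 ± 0.85 did not pass (limma adjusted p = 0.337) in a fit with a common spread over the 7 groups. The fewest Lars2 reads in a library were 1053.

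Rn45s, the 45S precursor of ribosomal RNA, was high in most libraries where Lars2 was high, though OT-I acute library 3 had more Rn45s and less Lars2 than OT-I acute library 2. It had 1493, 2003 and 434.5 RPKM in polyclonal chronic libraries 1 to 3, and 275, 2314 and 1673 RPKM in polyclonal acute libraries 1 to 3. The ratio of Rn45s to Lars2 stayed between 4.11 and 5.05 in these 6 libraries. It was between 6.02 and 11 in the OT-I libraries and between 6.51 and 10.0 in the NAC and vehicle libraries. What links the values of these genes was not tested.

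**Figure D5:**
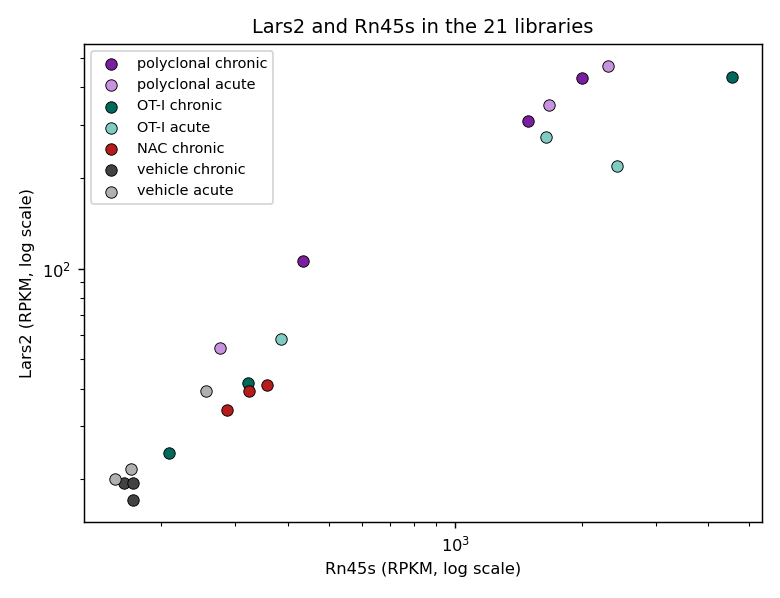
Lars2 RPKM (y axis, log scale) against Rn45s RPKM (x axis, log scale), with 1 point for each of the 21 libraries. Libraries high in one are mostly high in the other, and those of a group can lie far apart (24.4 to 434 RPKM of Lars2 in OT-I chronic libraries).

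Differences between the experiments in the effect of chronic stimulation on the synthetases were themselves tested. Between OT-I and polyclonal cells, 29 of 36 effects differed, 13 with a higher and 16 with a lower OT-I effect, where 55.8% of all genes did (26.6% higher and 29.2% lower). Between OT-I and vehicle cells, 23 differed, 16 higher and 7 lower (18 and 4 with libraries rescaled), where 58.5% of all genes did (27.4% higher and 31.1% lower). Between vehicle and polyclonal cells, 21 differed, 2 with a higher and 19 with a lower vehicle effect, where 52.4% of all genes did (25.1% higher and 27.3% lower). In total count, the difference between OT-I and polyclonal cells lay the furthest above the share of all genes. With single libraries left out, this count of 29 fell to between 24 and 28. The count was then 19 to 23 between OT-I and vehicle cells and 20 to 23 between vehicle and polyclonal cells. The totals of the other pairs were near that share, but the classes differed. The vehicle effect was below the polyclonal one for 18 of 20 cytosolic genes and above it for 0, with a median difference of -0.49. Of the 16 mitochondrial genes, 2 were higher and 1 lower. The OT-I effect was below the polyclonal one for 14 cytosolic and 2 mitochondrial genes, and above it for 5 and 8. Against the vehicle effect it was lower for 7 and 0, and higher for 8 and 8. The OT-I experiment differs from the others in the receptor, the stimulus and the tumour cells, which cannot be told apart.

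Genes that assist the synthetases were also followed. Eef1e1, a scaffold protein of the multisynthetase complex, averaged 56.0 ± 5.55 RPKM in polyclonal chronic and 22.9 ± 0.58 RPKM in polyclonal acute libraries (SD, n = 3 each), a log2 change of 1.25 ± 0.09 (limma adjusted p = 1.65e-10). It averaged 21.4 ± 0.80 RPKM in NAC chronic and 49.9 ± 2.45 RPKM in vehicle chronic libraries, and fell by 1.18 ± 0.09 (limma adjusted p = 5.89e-10). Aimp2, another scaffold protein, averaged 14.8 ± 0.72 RPKM with NAC and 29.6 ± 1.37 RPKM with vehicle, and fell by 0.95 ± 0.07 (limma adjusted p = 6.70e-10). Aimp1, the other scaffold, rose with NAC by 0.23 ± 0.08 (limma adjusted p = 0.0109), so the 3 scaffold genes did not move alike. In OT-I chronic cultures Aimp2 rose by 1.02 ± 0.07 (limma adjusted p = 3.97e-10) and Eef1e1 by 0.48 ± 0.09 (limma adjusted p = 0.000143). In vehicle chronic cells Aimp2 fell by 0.43 ± 0.07 (limma adjusted p = 3.98e-05) and Eef1e1 rose by 0.34 ± 0.09 (limma adjusted p = 0.00250). Xpot, which exports tRNA from the nucleus, averaged 12.8 ± 0.36 RPKM with NAC and 19.8 ± 0.22 RPKM with vehicle, and fell by 0.59 ± 0.05 (limma adjusted p = 8.68e-09).

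Xpot also rose by 0.58 ± 0.05 in polyclonal chronic cells and fell by 0.60 ± 0.05 in OT-I chronic cultures. Of the 4 genes that complete mitochondrial charging (Qrsl1, Gatb, Gatc and the formyltransferase Mtfmt), Gatc rose with NAC by 0.45 ± 0.08 (limma adjusted p = 8.80e-05) and 3 did not pass. Of 9 other charging and proofreading genes, 3 rose and 2 fell with NAC, and of 6 genes of tRNA export and delivery to the ribosome, 2 fell and 4 did not pass. In polyclonal chronic cells the same lists had 2 rises and 2 falls of 9, and 3 rises of 6. Over all genes 38.5% were higher and 22.6% lower with NAC, and 28.6% higher and 35.5% lower in polyclonal chronic cells, so the NAC counts of the 9 genes were near those shares and the lists are too short to read more.

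Of 17 genes of the ATF4 branch of the stress response, 15 fell with NAC and 2 did not pass the test, with a median log2 change of -0.87. In polyclonal chronic cells 15 rose and 1 fell, in OT-I chronic cultures 2 rose and 14 fell, and in vehicle chronic cells 8 rose and 5 fell. Over all genes 22.6% were lower with NAC, 28.6% higher in polyclonal chronic cells, 36.2% lower in OT-I chronic cultures, and 24.5% higher and 34.4% lower in vehicle chronic cells, where the 5 falls were no more frequent than that. Atf4 averaged 157 ± 1.98 RPKM in NAC chronic and 288 ± 2.53 RPKM in vehicle chronic libraries, and fell by 0.87 ± 0.05 (limma adjusted p = 2.43e-11). Asns, asparagine synthetase and an ATF4 target, averaged 34.7 ± 1.22 RPKM with NAC and 102 ± 2.47 RPKM with vehicle, and fell by 1.53 ± 0.05 (limma adjusted p = 1.29e-15). Slc7a5, the carrier for leucine and other large neutral amino acids, averaged 25.7 ± 1.58 RPKM with NAC and 137 ± 3.88 RPKM with vehicle, and fell by 2.37 ± 0.06 (limma adjusted p = 4.13e-17). In vehicle chronic cells Atf4 rose by 0.39 ± 0.05 (limma adjusted p = 3.37e-06), while 9 of the 20 cytosolic synthetases fell.

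Likeness to Atf4 was described by Pearson's r over the 7 group means of log2(RPKM + 1), groups that share experiments, with no test. It was above 0.8 for 13 of the 20 cytosolic genes, with a median of 0.83, and highest for Sars (0.97), Aars (0.95) and Wars (0.93). It was below 0 for Qars (-0.86) and Vars (-0.33). Of the 16 mitochondrial genes, Nars2 (0.85) and Rars2 (0.83) were above 0.8 and 7 were below 0, with a median of 0.01. Atf4 itself was highest in OT-I acute co-cultures, at a mean of 470 RPKM, and lowest in NAC chronic cells, at 157 RPKM. The share of all genes with r above 0.8 was not computed, so these counts are not read as particular to the synthetases.

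The 5 cytosolic genes whose promoter windows hold TGATGNAA (Aars, Gars, Iars, Tars and Yars, printed above) all fell with NAC, with a median log2 change of -0.93 and a range of -1.13 to -0.63. Of the 8 cytosolic genes with a window and no match, 6 fell and 2 did not pass, with a median of -0.31 and a range of -0.71 to 0.13. In polyclonal chronic cells 5 of 5 with a match rose, with a median of 0.38, and 6 of 8 without a match rose, with a median of 0.37. In OT-I chronic cultures 3 of 5 fell and 0 rose with a match, and 4 fell and 4 rose without one. In vehicle chronic cells 2 of 5 fell and 0 rose with a match, and of 8 without one 4 fell and 1 rose. These counts rest on few genes and were not tested.

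In the gene annotation of GRCm38, 11 of the 36 members overlap another protein-coding gene. Among them Mars overlaps Ddit3, a stress-response gene, on the opposite strand, and Hars and Hars2 overlap each other on opposite strands. The sources used here do not say if counting used strand, and reads of such pairs cannot be told apart. In OT-I cultures Ddit3 fell by 2.00 ± 0.08 on the log2 scale (limma adjusted p = 5.17e-14) while Mars rose by 0.22 ± 0.05 (limma adjusted p = 0.000972).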

How the data were processed

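Poly(A) RNA of 21 libraries was extracted with Trizol and prepared with a NEBNext Ultra kit, per the labels' protocols. Named in the submitters' processing notes, with no role, are the build mm9, edgeR, HTSeq and bcl2fastq 2.17. For aligner and annotation: not given in the sources used here. RPKM on a linear scale are what the authors deposited, in 1 table whose columns all matched samples by name. The gene family and the lists were proposed with earlier results of these data known, although the rule for members uses symbols and no values.

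Whole reads were recovered from the RPKM for 100% of genes within 0.001 reads (Python 3.11.15). They gave the depths and a voom alternative. Libraries of a group differed beyond sampling noise, with 1.52 to 56.5 as chi-square per gene.

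Values were fitted as log2(RPKM + 1), a pseudocount of 1, after a filter of RPKM 1 in at least 3 libraries (12630 genes). A single limma fit (version 3.58.1, R 4.3.3, trend) took 7 group means and no replicate block, leaving 14 residual degrees of freedom. Two-sided tests were run with Benjamini-Hochberg adjustment over all genes tested, called under 0.05. The fit was also run on simulated data drawn with the same spread in every group, which the real groups did not have. That run cannot show the error rate of the fit in the groups with more spread. Differences of effects were contrasts in the same fit.

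Values per library are given for up to 4 cytosolic and 3 mitochondrial genes with the largest called changes in each comparison, and up to 2 that moved against their class. Other genes follow fixed lists, up to 2 called per list by size; the others named there, Lars2 and the overlapping pairs were chosen after their values were seen. The promoter search used RefSeq windows on GRCm38.p6.

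Same-numbered polyclonal libraries deviated together across genes (r of 0.446, 0.629 and 0.168), though polyclonal chronic library 3 went most with acute library 1. This hint that the numbers pair them comes from the data, not the labels, and both libraries numbered 2 had raised low genes. Alternatives were another pseudocount, filter, scaling or fit, the replicate block, and each library left out. Those without Lars2, without the 3 libraries with raised low genes, and with the compared groups and block together were chosen after seeing the data.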

Additional observations from a re-analysis of the deposited data

Results flagged for a closer look

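In 12 instances the effect of chronic stimulation on a synthetase differed between experiments by limma's test of the difference itself, as the 2 highest and 2 lowest differences of each pair. Differences are on the log2 scale, with n = 3 in each of the 4 groups, and the share of all genes with a called difference is 55.8%, 58.5% and 52.4% in the 3 pairs in the order below.

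The effect in OT-I cells minus that in polyclonal cells was 0.72 ± 0.07 for Vars (adjusted p = 7.32e-08) and 0.65 ± 0.12 for Sars2 (adjusted p = 0.000102). It was -1.27 ± 0.07 for Wars (adjusted p = 2.67e-12) and -1.31 ± 0.06 for Eprs (adjusted p = 3.65e-13). Wars and Eprs, which rose in polyclonal chronic cells, fell in OT-I chronic cultures.

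The effect in OT-I cells minus that in vehicle cells was 1.03 ± 0.10 for Cars2 (adjusted p = 1.41e-08) and 0.94 ± 0.07 for Kars (adjusted p = 8.99e-10). It was -0.80 ± 0.07 for Wars (adjusted p = 2.65e-09) and -1.16 ± 0.07 for Sars (adjusted p = 5.01e-11). Sars fell in OT-I chronic cultures and rose in vehicle chronic cells.

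The effect in vehicle cells minus that in polyclonal cells was 0.42 ± 0.12 for Wars2 (adjusted p = 0.00610) and 0.29 ± 0.09 for Hars2 (adjusted p = 0.00974). It was -0.82 ± 0.07 for Rars (adjusted p = 4.99e-09) and -1.0 ± 0.08 for Farsb (adjusted p = 1.31e-09). The vehicle and polyclonal experiments have the same strain and stimulus by their labels, and they differ in the marker genes given above, whose part was not tested.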

How the results depend on the processing

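Among the counts of called genes and the balances, leaving aside the fits without 1 library, 130 recomputed values stayed within their limits (1.5 times a count, or 1 SD of a balance) and 3 moved with another measure. From sums of RPKM in place of mean logs, the difference in balance was 0.088 for vehicle chronic against acute (0.04 as reported) and -0.87 for NAC against vehicle chronic (-0.80 as reported), and without Lars2 the NAC comparison gave -0.75. With each library left out in turn, the balance difference ranged from 0.31 to 0.49 in polyclonal, -0.18 to -0.03 in OT-I, 0.03 to 0.06 in vehicle and -0.82 to -0.78 in NAC comparisons. Called cytosolic genes then numbered 18 to 19 in polyclonal, 15 to 17 in OT-I, 11 in vehicle and 17 to 19 in NAC comparisons, and called mitochondrial genes 5 to 6, 7 to 8, 5 to 7 and 5 to 7. The 5 with NAC, without vehicle chronic library 3, was beyond 1.5 times from the 8 reported. Of the single-gene values, 4609 kept their call, 146 lost it, 80 gained one and 1 reversed, Vars with NAC at -0.0035 under a common median. With the replicate block, called cytosolic genes numbered 19 in polyclonal, 15 in OT-I, 11 in vehicle and 19 in NAC comparisons, and mitochondrial ones 6, 8, 5 and 10; in the polyclonal comparison it changed the call of Aars2 and of no other member. Outside the polyclonal experiment the r of same-numbered libraries was lower (-0.167 to 0.0767 for chronic against acute). Yet in the vehicle experiment each chronic library went most with the acute library of its own number. The block took the call from Lars in OT-I cells (adjusted p = 0.0572) and gave one to Dars (0.0494), Nars2 (0.0349) and Pars2 (0.0243) with NAC. For these the cause was not tested. In members of few reads, such as Pars2, small changes may not be detectable at this depth.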
